A study of Sus scrofa with 6 samples.

Results

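The extracellular matrix genes of pig backfat were followed in castrated and intact brothers. They comprised the collagens, laminins, nidogens, fibrillins, fibulins, matrix metalloproteinases, ADAMTS proteases, TIMPs and lysyl oxidases, together with FN1, ELN, DCN, LUM, BGN, DPT, SPARC and HSPG2. Members were taken by gene symbol from the probe sets that carry a single symbol, which gave 45 genes on 82 probe sets, and each gene was represented by its probe set with the highest mean log2(signal + 16). No probe set with a single symbol stood for ELN, HSPG2, COL1A1, COL4A1, NID1 or any laminin alpha chain, so these were not analysed here. Of the 45 genes 33 passed the filter on dim probe sets and were tested, and the other 12 are described by their signals.

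Barrows, castrated at 7 days of age, were compared with boars, their intact full brothers, all Pietrain by Landrace hybrids killed at 175 days. Each group had 3 Affymetrix arrays, and each array measured subcutaneous fat RNA pooled from 5 pigs (middle backfat layer, rib 6), so errors are between pools and not between single pigs. The purpose of the series was to compare gene expression in fat with and without the testes. The labels name no hormone treatment, and castration removes every testicular product at once. The values are MAS5 signal intensities, and differences are barrow minus boar on the log2(signal + 16) scale, where a change of a dim gene is understated. Signals of different probe sets are not compared as gene levels, because each probe set binds with its own strength. In pools of whole tissue, fewer cells of a type and less RNA per cell cannot be told apart.

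Fat cells sit in a mesh of fibrillar collagen and each is wrapped in a basement membrane, a sheet in which laminin trimers and a type IV collagen network are joined by nidogens and perlecan. Fibroblasts and fat cell progenitors make most of the fibrillar collagen and its small proteoglycans, while fat cells, endothelium and pericytes also lay down basement membrane. Lysyl oxidases cross-link the fibres, metalloproteinases cut them, and TIMPs hold the proteinases in check, so that the mesh can be loosened as fat cells enlarge.

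Median signals of the arrays were 162 to 173, and each group's sample size limits the precision. In barrow fat 101 of 14399 probe sets rose and 66 fell (limma, adjusted p under 0.05), which is 1.16% of those tested. Defining genes of fat were bright, with 11 of 11 adipocyte markers that had a probe set past the filter, while 0 of 7 skeletal muscle markers passed it and the highest signal among them was 92.9. Barrow replicate 2 stood apart from the other pools in matrix genes. It had the lowest signal of all 6 pools in 19 of the 33 tested members (57.6%), against 24.7% of all tested probe sets, and in 9 of 11 fibroblast and stromal progenitor markers. The mean deviation of the 33 members from their mean over 6 pools was 0.11, -0.19 and 0.10 in barrow replicates 1, 2 and 3, against -0.02, -0.05 and 0.05 in boar replicates 1, 2 and 3. Differences whose sign or call changed without this pool are therefore given with and without it. The pool was singled out on the values of these same genes. Leaving it out raises the barrow mean wherever it was the lowest barrow pool, so calls found only in that fit are no separate evidence.

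**Figure D1:**
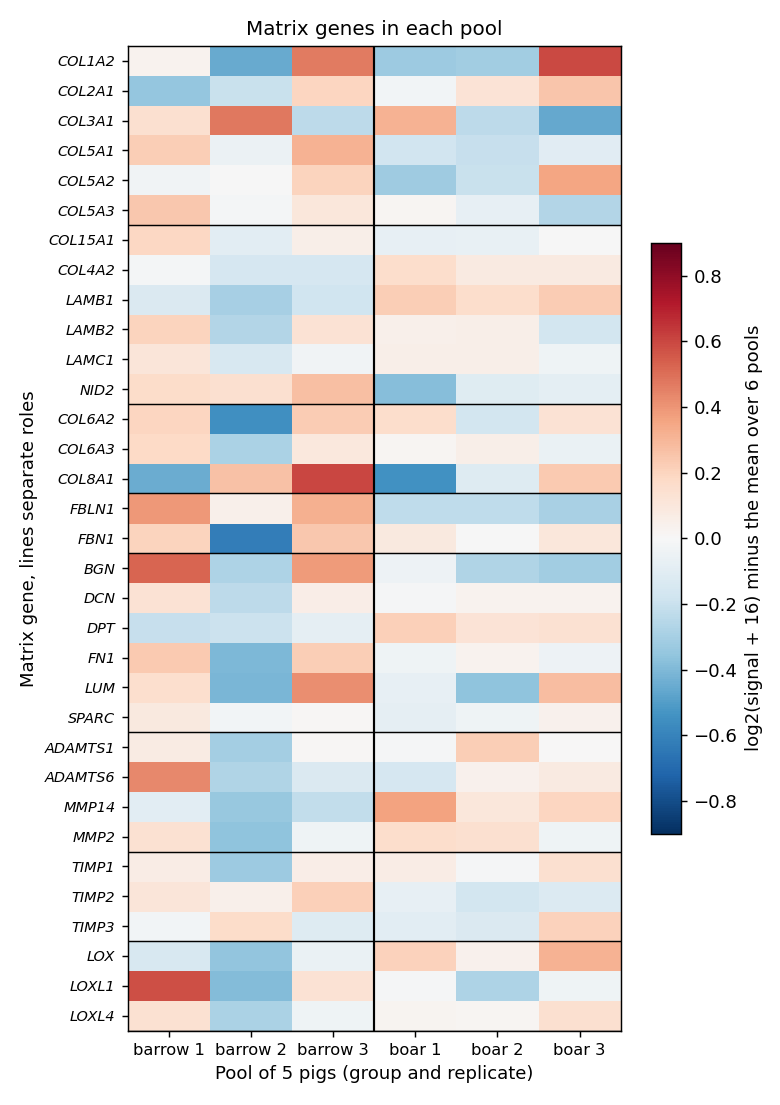
Heat map of the 33 tested matrix genes (rows, grouped by role between black lines) in the 3 barrow and 3 boar pools (columns); colour is log2(signal + 16) minus that gene's mean over the 6 pools. The barrow 2 column is blue in most rows and is the lowest pool in 19 of 33 genes, while LAMB1, DPT, LOX and MMP14 are lower in all 3 barrow pools than in any boar pool.

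Among matrix genes 1 of 33 fell in barrows and 0 rose, against 0.458% of all tested probe sets that fell and 0.701% that rose. The gene that fell was LAMB1, the laminin beta 1 chain. With the replicate number as a block, which compares pools of equal number, 5 of 33 passed, against 2.35% of all tested probe sets. NID2 and FBLN1 were then higher in barrows (2 of 33, against 1.49%), and LAMB1, DPT and LOX lower (3 of 33, against 0.854%). Unadjusted p-values under 0.05 were found for 11 of 33 members (33.3%), against 12.2% of all tested probe sets, and the groups did not overlap in 9 of 33 (27.3%), against 18.1%. Of these 9, COL5A1, NID2, FBLN1 and TIMP2 were higher in barrows (4 of 33, against 8.38%), and LAMB1, COL4A2, DPT, MMP14 and LOX were lower (5 of 33, against 9.76%). A closer background is the 5356 tested genes with a symbol, each at its brightest tested probe set. There 13.7% had an unadjusted limma p under 0.05 and 19.6% had groups that did not overlap. Of these genes 1.51% passed, and 3.10% with the block. Differences lay on both sides of 0, with 18 members above it and 15 below. Their median was 0.02 and their median size without regard to sign was 0.15, against -0.01 and 0.12 over all tested probe sets. Without barrow replicate 2 the balance was 22 above and 11 below 0, the median was 0.14 and 4 of 33 members passed, against 2.02% of all tested probe sets. BGN, COL5A1 and FBLN1 rose (3 of 33, against 1.11%) and LAMB1 fell (1 of 33, against 0.91%) in that fit. Barrow replicate 2 was picked because it was low in these same genes, so the shift upward follows in part from that choice. In limma without adjustment, p was under 0.05 for 2 of 6 fibrillar collagens, 3 of 6 basement membrane genes, 0 of 3 other collagens, 1 of 2 elastic fibre genes, 2 of 6 proteoglycans and glycoproteins, 1 of 4 proteases, 1 of 3 TIMPs and 1 of 3 cross-linking enzymes.

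**Figure D2:**
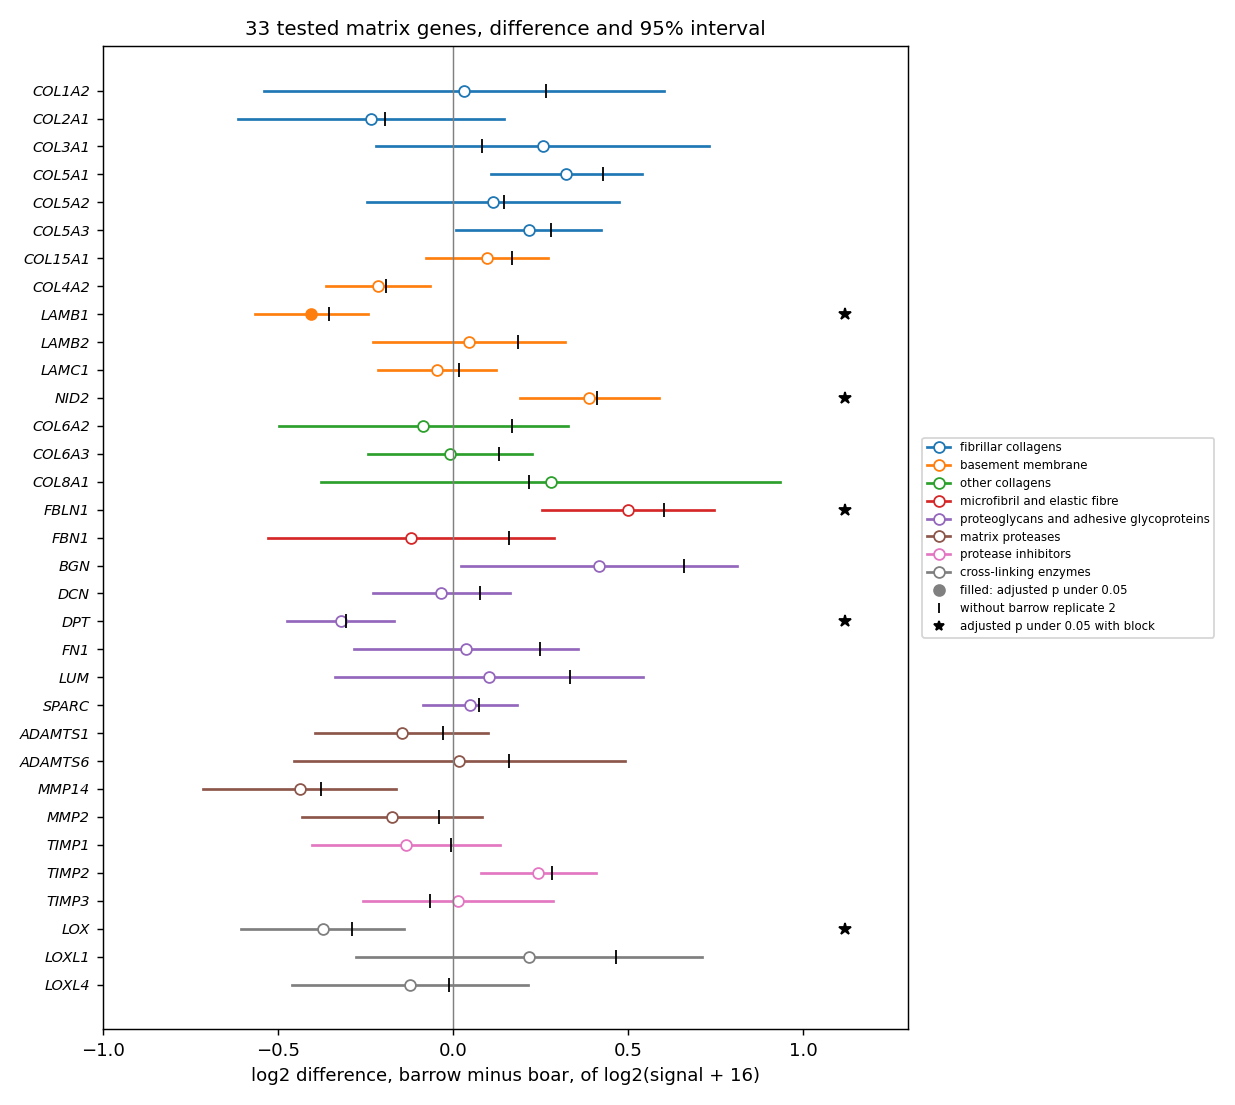
Log2 difference, barrow minus boar, of each tested matrix gene (circles) with its 95% interval (bars), coloured by role; filled circles passed at adjusted p under 0.05, stars mark genes that passed with the replicate block, and black ticks give the difference without barrow replicate 2. LAMB1 is the filled circle, at -0.40, and the stars stand beside LAMB1, NID2, FBLN1, DPT and LOX.

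Basement membrane genes did not move as one. LAMB1 had signals of 3607, 3197 and 3487 in barrows, against 4602, 4395 and 4632 in boars. Every barrow pool lay below every boar pool. The mean was 3431 ± 211 in barrows and 4543 ± 129 in boars (SD, n = 3 each), a 1.32-fold higher signal in boars, and the log2 difference was -0.40 (95% CI -0.57 to -0.24, limma adjusted p = 0.029, and 0.015 with the block). LAMB1 still passed when barrow replicate 2 was left out (-0.36, adjusted p = 0.028), and it no longer passed when boar replicate 1 (adjusted p = 0.18), boar replicate 3 (adjusted p = 0.16), barrow replicate 1 (adjusted p = 0.069) or barrow replicate 3 (adjusted p = 0.083) was left out. Its second, dimmer probe set had 1105, 1321 and 1140.2 in barrows, against 1455, 1342 and 1556 in boars. The groups again did not overlap, with a difference of -0.29 that did not pass (adjusted p = 0.26, and 0.20 with the block). Averaged over both probe sets the difference of LAMB1 was -0.35 (adjusted p = 0.057).

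LAMC1, the gamma 1 chain that assembles with laminin beta 1, was read by 4 tested probe sets, and they differed. The brightest had 9023, 7551 and 8177 in barrows, against 8658, 8685 and 8146 in boars, with overlapping groups and a difference of -0.05 (95% CI -0.21 to 0.12, adjusted p = 0.87), and of 0.02 without barrow replicate 2. In each of the 3 dimmer probe sets all barrow pools lay below all boar pools. The first of these had 1512, 1619.9 and 1469 in barrows, against 1926, 2078 and 1681 in boars. The second had 1075, 986 and 1029 in barrows, against 1283, 1235 and 1447 in boars. The third had 938, 993 and 1024 in barrows, against 1173, 1333 and 1360.3 in boars. Their differences were -0.30, -0.35 and -0.38 (adjusted p = 0.21, 0.12 and 0.091), and the last passed with the block (adjusted p = 0.043). Which of the 4 probe sets reads LAMC1 best was not tested, and the difference between them was not tested either.

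Partners of the laminin sheet differed among themselves. NID2, nidogen-2, which bridges laminin and type IV collagen, had 4767, 4706 and 5128 in barrows, against 3246, 3942 and 3994 in boars. All barrow pools were above all boar pools. Its mean was 4867 ± 228 in barrows and 3727 ± 417 in boars (SD, n = 3 each), and the difference of 0.39 (95% CI 0.19 to 0.59) did not pass without the block (adjusted p = 0.079) but did with it (adjusted p = 0.034). COL4A2, a chain of the type IV collagen network, had 7136, 6494 and 6480.0 in barrows, against 8065, 7625 and 7620.4 in boars. The groups did not overlap, and the difference of -0.21 (95% CI -0.36 to -0.06) did not pass (adjusted p = 0.20, and 0.10 with the block). LAMB2, the laminin beta 2 chain found in vessel walls and at nerve-muscle contacts, overlapped between groups, with 1658, 1200.2 and 1576 in barrows, against 1487, 1493 and 1286 in boars, and a difference of 0.05 (95% CI -0.23 to 0.32, adjusted p = 0.93, and 0.19 without barrow replicate 2). COL15A1, a basement membrane collagen, had a mean of 7603 ± 746 in barrows and 7088 ± 196 in boars (SD, n = 3 each) and a difference of 0.10 (adjusted p = 0.69).

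Endothelial markers, which accompany basement membrane in vessel walls, had differences below 0 in 10 of 12 tested members (83.3%), against 53.4% of all tested probe sets, with a median of -0.20. The groups did not overlap in 6 of 12, against 18.1%. Of the 12, 1 fell, against 0.458%, and 0 rose, against 0.701%. It was TEK, the angiopoietin receptor, at -0.47 (95% CI -0.69 to -0.26, adjusted p = 0.047, and up to 0.25 when 1 pool was left out). Without barrow replicate 2, CLDN5, a tight junction protein, fell as well (-0.59, adjusted p = 0.022, against -0.45 and 0.17 with all pools). That made 2 of 12 lower in this fit, against 0.91% of all tested probe sets. The adjusted p of CLDN5 was up to 0.45 when another pool was left out. The list's summed signal was 15991 to 16731 in barrow pools and 18024 to 18823 in boar pools, without overlap. Such a sum weighs bright members most, here PECAM1. The mean log2 deviation, which weighs members equally, was -0.12 to -0.07 in barrow pools and 0.08 to 0.11 in boar pools. Barrow pools were thus lower in this list as in LAMB1 and COL4A2 and unlike in NID2. The part of vessel cells in these differences was not tested.

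**Figure D3:**
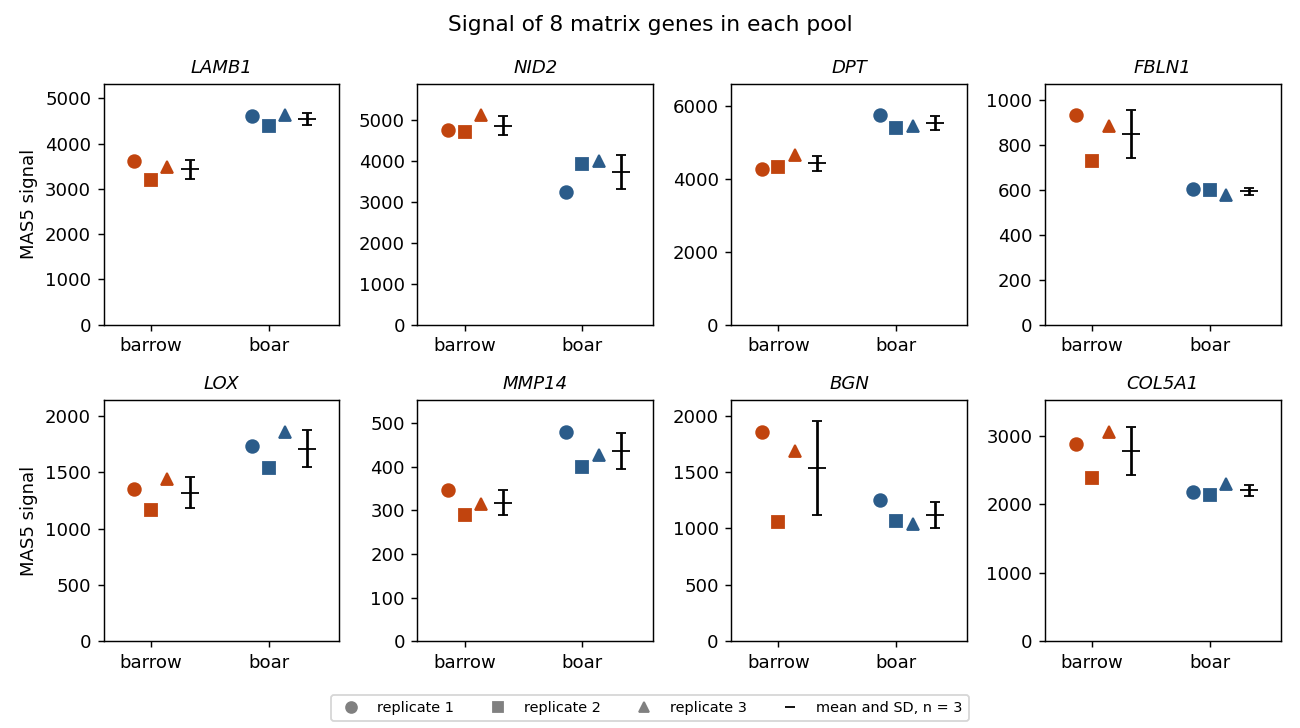
MAS5 signal (vertical axis from 0) of 8 matrix genes in each pool, barrows in orange and boars in blue, with the symbol giving the replicate number and the black mark the mean and SD of 3 pools. LAMB1, DPT, LOX and MMP14 are lower and NID2, FBLN1 and COL5A1 higher in every barrow pool than in every boar pool, while BGN overlaps through barrow replicate 2, at 1062.

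Fibrillar collagens, the tensile fibres of the tissue, gave 0 calls among 6 tested genes, without or with the block. Differences were above 0 in 5 of 6 (median 0.16), against 6705 of all 14399 tested probe sets. COL5A1, the type V chain that starts fibrils and sets their width, had 2882, 2381 and 3061 in barrows, against 2181, 2130.1 and 2297 in boars. The lowest barrow pool, replicate 2, still exceeded the highest boar pool. Its mean was 2775 ± 352 in barrows and 2203 ± 85.4 in boars (SD, n = 3 each), with a difference of 0.32 (95% CI 0.11 to 0.54, adjusted p = 0.18, and 0.072 with the block). Without barrow replicate 2 it was 0.43 and passed (adjusted p = 0.020), while the adjusted p was up to 0.51 when another pool was left out. The 2 other tested probe sets of COL5A1 were also higher in barrows, by 0.19 and 0.57 (adjusted p = 0.60 and 0.26), and only the second of these kept the groups apart.

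COL5A3, another type V chain, had 4742, 3966 and 4307 in barrows, against 4056, 3807 and 3341 in boars. Barrow replicate 2 lay below boar replicate 1, and the difference was 0.22 (95% CI 0.01 to 0.42, adjusted p = 0.38). COL5A2, which pairs with COL5A1 in the main type V molecule, had 678, 690.2 and 799.7 in barrows, against 550.4, 599 and 889 in boars, with a difference of 0.11 (adjusted p = 0.85). Type V chains thus all had positive differences, and none passed in either fit over all 6 pools.

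The major fibre collagens varied more within groups than between them. COL1A2, the alpha 2 chain of type I collagen, had 3954, 2823 and 5355 in barrows, against 3076, 3114 and 5849 in boars. Replicate 3 was the highest pool of both groups, and the difference was 0.03 with a wide interval (95% CI -0.54 to 0.60, adjusted p = 0.98). COL3A1, the type III chain of softer fibres, had 479.5, 606 and 365 in barrows, against 541, 364 and 309.7 in boars. Here replicate 3 was the lowest pool of both groups, the reverse of COL1A2, and the difference was 0.26 (95% CI -0.22 to 0.73, adjusted p = 0.70). The interval of COL1A2 spans a 1.45-fold higher signal in boars and a 1.52-fold higher signal in barrows. With the replicate block, which compares pools of equal number, the interval of the log2 difference was narrower, at -0.20 to 0.26. COL2A1, the cartilage collagen, gave 159, 178 and 239 in barrows, against 203, 227 and 249 in boars, with overlapping groups (-0.23, adjusted p = 0.65).

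Other collagens gave 0 calls among 3 tested. COL6A3, a chain of the beaded type VI filaments that are plentiful around fat cells, had 13308, 9667 and 12548 in barrows, against 11926, 12196 and 11279 in boars. Barrow replicate 2 was the lowest pool, and the difference was -0.01 (95% CI -0.24 to 0.23, adjusted p = 0.99) with it and 0.13 (adjusted p = 0.39) without it. COL6A2, of the same filaments, had 1462, 864 and 1496 in barrows, against 1427, 1136 and 1396 in boars, with a difference of -0.08 (adjusted p = 0.91) that became 0.17 when barrow replicate 2 was left out (adjusted p = 0.50). COL8A1, a short-chain collagen of vessel walls, lay near the limit of the filter, at 66.4, 118 and 154 in barrows, against 61.1, 87.8 and 116 in boars (0.28, adjusted p = 0.77), and its boar mean of 6.67 on the log2 scale was below the lowest tested mean of 6.76.

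In the elastic fibre group FBLN1, fibulin-1, a glycoprotein of elastic fibres and basement membranes, had 931, 728 and 884 in barrows, against 602, 599.6 and 574 in boars. The groups did not overlap, and boar pools were close together. Its mean was 848 ± 106 in barrows and 592 ± 15.3 in boars (SD, n = 3 each), a 1.41-fold higher signal in barrows, and the difference of 0.50 (95% CI 0.25 to 0.75) did not pass without the block (adjusted p = 0.069) but did with it (adjusted p = 0.047). When barrow replicate 2 was left out it was 0.60 and passed without the block (adjusted p = 0.012). With another pool left out, the adjusted p of FBLN1 was up to 0.27. FBN1, fibrillin-1, the backbone of microfibrils, had 6096, 3445 and 6265 in barrows, against 5626, 5282 and 5682 in boars. Barrow replicate 2 alone lay below the boars and the other barrow pools lay above them, so the difference was -0.12 with that pool (adjusted p = 0.86) and 0.16 without it (adjusted p = 0.28). The dimmer probe set of FBN1 had 2497, 1705 and 2390 in barrows, against 2486, 2409 and 2584 in boars. Its difference was -0.20 (adjusted p = 0.59) and stayed below 0 without barrow replicate 2, at -0.03 (adjusted p = 0.89).

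Proteoglycans and adhesive glycoproteins gave 0 calls among 6 tested and 1 with the block, DPT, against 0.854% of all tested probe sets that were then lower. DPT, dermatopontin, which binds decorin and aids collagen fibril assembly, had 4285, 4324 and 4665 in barrows, against 5751, 5389 and 5446 in boars. All barrow pools lay below all boar pools, and barrow replicate 2 lay between the other barrow pools. Its mean was 4424 ± 209 in barrows and 5529 ± 194 in boars (SD, n = 3 each), a 1.25-fold higher signal in boars, and the difference of -0.32 (95% CI -0.47 to -0.17) had an adjusted p of 0.060, and of 0.041 with the block.

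BGN, biglycan, a small collagen-binding proteoglycan, had 1858, 1062 and 1686 in barrows, against 1251, 1069 and 1035 in boars. Barrow replicates 1 and 3 exceeded every boar pool, and barrow replicate 2 lay among the boars. The difference was 0.42 (95% CI 0.02 to 0.81, adjusted p = 0.38, and 0.17 with the block). Without barrow replicate 2 it was 0.66 and passed (adjusted p = 0.012), while the adjusted p was up to 0.70 when another pool was left out. Related proteoglycans did not separate the groups. DCN, decorin, had 15613, 12117 and 14935 in barrows, against 14173, 14602 and 14617 in boars (-0.03, 95% CI -0.23 to 0.16, adjusted p = 0.93, and 0.08 without barrow replicate 2). LUM, lumican, had 7255, 4893 and 8705 in barrows, against 6203, 5074 and 7927 in boars (0.10, adjusted p = 0.90, and 0.34 without barrow replicate 2), with replicate 2 the lowest and replicate 3 the highest pool in both groups.

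FN1, fibronectin, the adhesive scaffold on which other fibres are laid, had 9862, 6303 and 9749 in barrows, against 8129.8, 8536 and 8082 in boars. As with the brightest probe set of FBN1, barrow replicate 2 was below and the other barrow pools above all boar pools. The difference was 0.04 (adjusted p = 0.95), and it became 0.25 when barrow replicate 2 was left out (adjusted p = 0.081). SPARC, a collagen-binding matricellular protein, had 22149, 20528 and 21048 in barrows, against 19782, 20352 and 21480.2 in boars. The difference was 0.05 with a narrow interval (95% CI -0.08 to 0.18, adjusted p = 0.81), at signals near the top of the arrays' range, where MAS5 differences can be compressed.

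Among enzymes that remodel the mesh, LOX, lysyl oxidase, which starts the cross-linking of collagen and elastin, had 1350.0, 1167 and 1436 in barrows, against 1729.9, 1537 and 1861 in boars. Every barrow pool lay below every boar pool, and in both groups replicate 2 was the lowest and replicate 3 the highest. The mean was 1318 ± 137 in barrows and 1709 ± 163 in boars (SD, n = 3 each), a 1.29-fold higher signal in boars, and the difference of -0.37 (95% CI -0.60 to -0.14) did not pass without the block (adjusted p = 0.15) but did with it (adjusted p = 0.035). LOXL1, which acts on elastic fibres, had 323, 157 and 232 in barrows, against 209, 171 and 204 in boars (0.22, adjusted p = 0.77, and 0.46 without barrow replicate 2). LOXL4 had 240.0, 175 and 210.1 in barrows, against 219.9, 219 and 241 in boars (-0.12, adjusted p = 0.81, and -0.01 without barrow replicate 2). Both overlapped between groups.

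Matrix proteases gave 0 calls among 4 tested, without or with the block. MMP14, the membrane-bound collagenase that activates the precursor of MMP2 in a complex with TIMP2, had 347, 289.8 and 316 in barrows, against 481, 399.8 and 427 in boars. The groups did not overlap, with a 1.35-fold higher signal in boars, and the difference of -0.44 (95% CI -0.71 to -0.16) did not pass (adjusted p = 0.15, and 0.086 with the block). MMP2, gelatinase A, had 4504, 3197 and 3998 in barrows, against 4569, 4545 and 3990.4 in boars, with overlapping groups (-0.17, adjusted p = 0.60, and -0.04 without barrow replicate 2). ADAMTS1, a protease of large proteoglycans, had 2186, 1669 and 2091 in barrows, against 2059, 2420.3 and 2082 in boars (-0.15, adjusted p = 0.66, and -0.03 without barrow replicate 2), and its other probe set gave -0.14.

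TIMPs, inhibitors of these proteases, gave 0 calls among 3 tested. TIMP2 had 3568, 3413 and 3837 in barrows, against 3143, 2944 and 3034 in boars. All barrow pools were higher, and the difference of 0.24 (95% CI 0.08 to 0.41) did not pass (adjusted p = 0.18, and 0.11 with the block). Its other probe set had 0.27 (adjusted p = 0.38), with overlap through barrow replicate 2. Without that pool it was 0.42 and passed (adjusted p = 0.021), while the adjusted p was up to 0.69 when another pool was left out. TIMP1 had 779.7, 592 and 776 in barrows, against 780.0, 740.3 and 826 in boars (-0.13, adjusted p = 0.72, and -0.01 without barrow replicate 2). TIMP3, which stays bound to the matrix, had 676, 775 and 633 in barrows, against 643, 627 and 798 in boars (0.01, adjusted p = 0.98, and -0.07 without barrow replicate 2), and its other probe set pointed the other way (-0.20, adjusted p = 0.60).

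**Figure D4:**
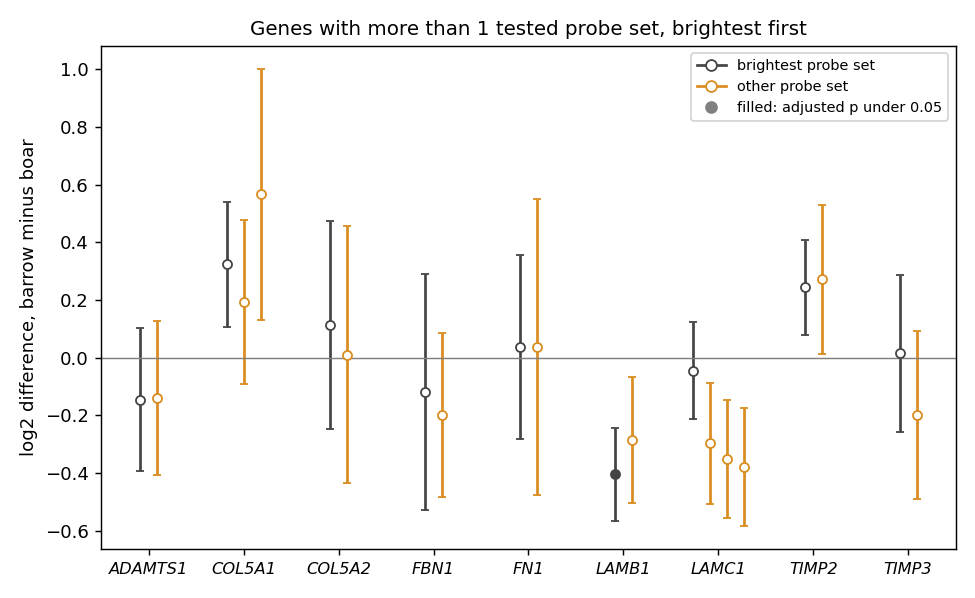
Log2 difference, barrow minus boar, with 95% interval for each tested probe set of the 9 matrix genes that had more than 1, ordered within a gene from bright to dim; grey marks the brightest probe set and orange the others, and the filled circle passed at adjusted p under 0.05. In 8 of the 9 genes all probe sets lie on 1 side of 0 (TIMP3 is the exception), and in LAMC1 the brightest lies at -0.05 and the others between -0.38 and -0.30.

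The 12 members below the filter were COL7A1, COL10A1, COL11A1, COL17A1, ADAMTS20, MMP1, MMP3, MMP7, MMP9, MMP13, MMP20 and TIMP4, with signals of 1.32 to 122. They include the interstitial collagenases MMP1 and MMP13 and the gelatinase MMP9. No detection call was used, so these signals are not shown to exceed background, and no difference is read from them. TIMP4, at 48.6, 122 and 109.6 in barrows, against 82.1, 95.3 and 93.3 in boars, lay closest to the filter.

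Genes that make, sense or hold the matrix were taken from lists. Of 13 tested genes of collagen synthesis and processing 0 passed without or with the block. With a median of -0.04, 5 lay above 0 and 8 below (61.5%, against 53.4% of all tested probe sets). An unadjusted limma p under 0.05 was found for 0 of 13, against 12.2%. The collagen chaperone SERPINH1 was at -0.04 (adjusted p = 0.89). BMP1, the protease that trims procollagen, had 686, 609 and 655 in barrows, against 598, 545 and 519.9 in boars. These groups did not overlap, and the difference was 0.22 (adjusted p = 0.42). PDIA3, a disulfide isomerase, had -0.17 (adjusted p = 0.50).

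Of 12 tested genes of TGF-beta signalling, which drives collagen transcription in fibroblasts, 1 fell, against 0.458% of all tested probe sets, and 0 rose, against 0.701% (median 0.01). The gene that fell was PMEPA1, a TGF-beta target that dampens the pathway, with 1359.8, 1350.2 and 1268 in barrows, against 1880.1, 1667 and 1809.8 in boars. The groups did not overlap, with a 1.34-fold higher signal in boars and a difference of -0.42 (95% CI -0.61 to -0.24, adjusted p = 0.040). PMEPA1 no longer passed when boar replicate 1 (adjusted p = 0.25), boar replicate 3 (adjusted p = 0.20) or barrow replicate 1 or 3 (adjusted p = 0.13 for each) was left out, and averaged over its probe sets it had -0.34 (adjusted p = 0.22). ENG, a TGF-beta co-receptor of endothelium, had -0.29 (adjusted p = 0.30).

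Of 9 tested integrins and other matrix receptors 0 passed, and 2 had an unadjusted limma p under 0.05 (22.2%, against 12.2% of all tested probe sets). Differences were below 0 in 7 of 9 (77.8%, against 53.4%), with a median of -0.07. ITGAV, the integrin chain that binds fibronectin and vitronectin, had 1902, 1586 and 1809 in barrows, against 2292, 2392 and 2260.1 in boars, without overlap (-0.39, adjusted p = 0.069, and 0.052 with the block). SDC1, a cell-surface heparan sulfate proteoglycan, had 195, 189 and 219.6 in barrows, against 129.8, 122 and 121 in boars, without overlap (0.63, adjusted p = 0.091).

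Markers of the cells that make matrix were set beside these results. Of 11 tested fibroblast and stromal progenitor markers 0 passed in limma, and 2 had an unadjusted p under 0.05 (18.2%, against 12.2% of all tested probe sets). In 8 of 11 the difference was below 0 (72.7%, against 53.4%), with a median of -0.20. Their summed signal was 50495 to 63948 in barrow pools, with barrow replicate 2 lowest, and 62838 to 63661 in boar pools. Without that pool 6 of 11 lay below 0, with a median of -0.06, and 1 of 11 rose, against 1.11% of all tested probe sets. It was THY1, a surface protein of fibroblasts, at 4057, 2671 and 4213 in barrows, against 2826, 2698 and 2757 in boars (0.37, adjusted p = 0.33, and 0.58, adjusted p = 0.003, without barrow replicate 2). The adjusted p of THY1 was up to 0.64 when another pool was left out.

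The 7 smooth muscle and pericyte markers had summed signals of 12305 to 16124 in barrow pools, again with barrow replicate 2 lowest, and 15374 to 17278 in boar pools. ACTA2, smooth muscle actin, was the brightest of them and weighed most in these sums. It was at 6194 in barrow replicate 2, against 8564 and 9104 in the other barrow pools and 10128, 9113 and 10257 in boars. DES, desmin, was at 106 in barrow replicate 2, against 209 and 226 in the other barrow pools, but 113, 135 and 117 in boars. The pericyte genes RGS5 and KCNJ8 were not low in barrow replicate 2, at 2565 and 393, against 2469 and 392 in the lower of the other barrow pools. KCNJ8, a potassium channel subunit, was lower in every barrow pool than in every boar pool and fell with the block (-0.49, adjusted p = 0.057, and 0.048 with the block). It was the 1 call of this list with the block, against 0.854% of all tested probe sets that were then lower, and 0 passed without the block.

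Macrophage markers had differences below 0 in 6 of 7 (85.7%, against 53.4%), with a median of -0.23, and 3 of 7 had an unadjusted limma p under 0.05 (42.9%, against 12.2%) and groups apart in 3 of 7 (against 18.1%). None passed without the block, and C1QA, a chain of complement C1q, fell with it (-0.44, adjusted p = 0.13, and 0.035 with the block). That was 1 of 7, against 0.854% of all tested probe sets that were then lower. Summed signals of the macrophage markers were 7759 to 9104 in barrow pools and 8155 to 10503 in boar pools.

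Of 11 adipocyte markers 1 rose, against 0.701% of all tested probe sets. It was LEP, the fat cell hormone leptin, with 1559, 1690 and 1430 in barrows, against 946, 1048 and 1115 in boars. The groups did not overlap, and the difference was 0.58 (95% CI 0.37 to 0.80, adjusted p = 0.021, and up to 0.14 when 1 pool was left out). The list's summed signal was 96344 to 105175 in barrow pools and 101484 to 105452 in boar pools, and barrow replicate 2 was not low among them, at 105175. The 3 tested lymphocyte markers gave 0 calls. Of 3 tested skin and gland epithelium markers 1 rose, against 0.701% of all tested probe sets. It was PIP, a secreted gland protein, with 207, 1508 and 219 in barrows, against 13.7, 3.83 and 29.9 in boars. Its limma adjusted p was 0.018, and up to 0.098 when 1 pool was left out. Every boar signal lay below the filter limit, a mean signal of 92.7, so PIP was tested only because of its barrow signals. Through PIP, barrow replicate 2 was also the highest pool in this list. The list's summed signal there was 1903, against 644 and 670.3 in the other barrow pools and 465 to 532 in boar pools. The other tested members did not follow. In that pool KRT8 was at 95.8, the lowest pool of all, and KRT10 was at 299.6, below every boar pool. Low matrix signals in barrow replicate 2 thus went with low fibroblast markers, low ACTA2 and a high PIP signal. DES was low in that pool mainly against the other barrow pools. The part of these cells in the matrix results was not tested.

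**Figure D5:**
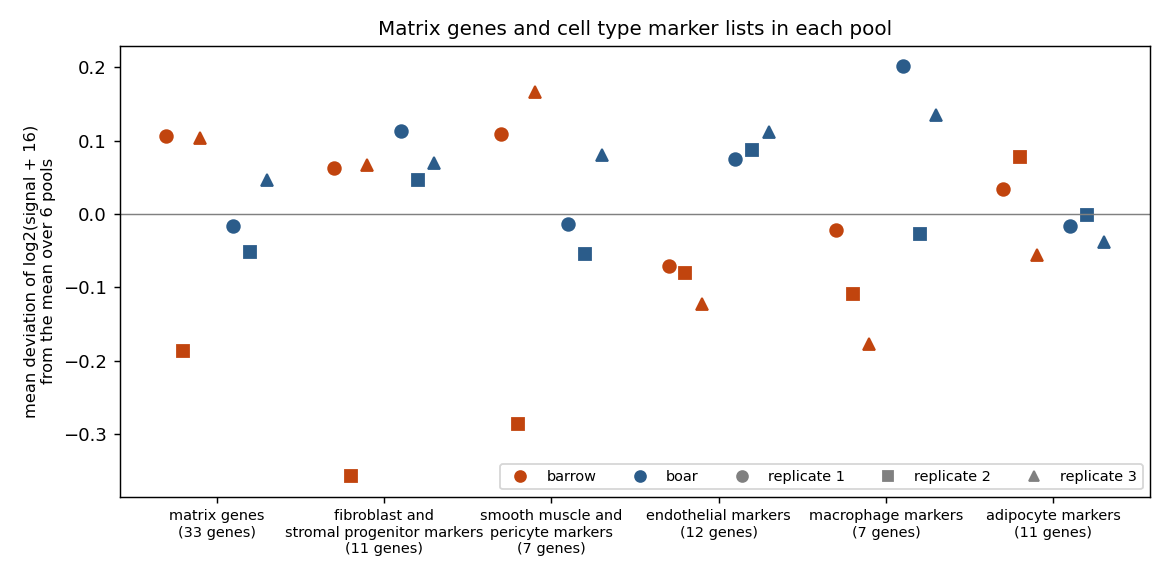
Mean deviation of log2(signal + 16) from each gene's mean over 6 pools, averaged over the tested matrix genes and over marker lists of 5 cell types, for barrow pools (orange) and boar pools (blue), with symbols for the replicate number. Barrow replicate 2 is the lowest pool for matrix genes (-0.19), fibroblast markers (-0.36) and the smooth muscle and pericyte list (-0.29), and the endothelial list lies lower in all 3 barrow pools than in the boar pools.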

How the data were processed

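Fat RNA of 6 pools, 3 of barrows and 3 of boars, was measured on Affymetrix Porcine arrays. Per the submitters' processing notes the deposited intensity values came from MAS5, and its version is not given in the sources used here. The trimmed mean (2%) of every array was 500.1, as tested on the deposited values. Control probe sets (124 of 24123) were left out. Values were kept at this scaling and transformed to log2(signal + 16), and the brightest 60% by mean over all arrays (14399 probe sets) were tested by limma 3.58.1 in R 4.3.3 (lmFit, eBayes with an intensity trend, 2-sided, Benjamini-Hochberg over all tested, threshold 0.05, checked on simulated data). No set test was made. Symbols came from the platform annotation, and all 45 were found again by gene identifier in RefSeq (Sscrofa11.1). Coordinates were not used.

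Members and lists were chosen with earlier results of these data known. Genes named were members that passed without or with the block, members with unadjusted p under 0.05 and groups apart, the 3 smallest p-values and 2 brightest of each role, type I, III, IV and VI collagens and laminins, and in the 3 pathway lists the genes that passed and the 2 smallest p-values. COL5A2, LUM and SERPINH1, all cell type markers, and the dim genes, were named outside this rule after their values were seen.

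Both groups carry replicate numbers 1 to 3. The labels do not say whether equal numbers mark the same families. Residuals of pools with equal numbers correlated at 0.12, 0.17 and 0.26, all above 0.1, against -0.19 to -0.01 for other combinations. Residuals were taken within each group, so higher values for equal numbers force lower values for the others, and the contrast is not independent support for pairs. The main fit left the replicate numbers out. An alternative fit with the number as a block treated pools of equal number as pairs, and its value is given where it changes the call of a gene named.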

Additional observations from a re-analysis of the deposited data

How the results depend on the processing

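Alternatives covered scaling, pseudocount, filter, model, the replicate block, the mean of probe sets and leaving out each pool. The number of matrix members that passed, 1 with the settings of the report, was 1 with median centring, with pseudocount 1 or 64 and in the upper 40%, 2 under quantile normalization (LAMB1 and DPT), 0 without a filter, 0 without the intensity trend, 0 with the mean of probe sets, 5 with array weights and 5 with the replicate block, and ran from 0 to 4 when 1 pool was left out. Leaving out barrow replicate 2 gave 4, boar replicate 2 gave 1, and each of the other 4 pools gave 0. Over all probe sets, 167 passed with the settings of the report, 96 without a filter, 32 without the intensity trend, 425 with array weights, 338 with the replicate block, and 24 to 291 when 1 pool was left out, with the lowest count when boar replicate 1 and the highest when barrow replicate 2 was omitted. In the pathway and marker lists 4 genes passed, 2 with median centring, 1 without a filter, 0 without the intensity trend, 9 with array weights, 1 with the mean of probe sets and 0 to 6 when 1 pool was left out. LAMB1 stayed below 0 in every alternative, at -0.44 to -0.35, and besides the fits named in the report its adjusted p was above the threshold without a filter (0.057) and without the intensity trend (0.16). PMEPA1 likewise missed it with median centring (adjusted p = 0.063), without a filter (adjusted p = 0.061) and without the trend (adjusted p = 0.15), as did TEK (adjusted p = 0.070, 0.068 and 0.15 in the same order, and 0.29 with the mean of probe sets). LEP missed it without the trend (adjusted p = 0.11), averaged over its probe sets (adjusted p = 0.067), and when barrow replicate 1, boar replicate 1 or boar replicate 3 was left out (adjusted p = 0.091, 0.14 and 0.067).

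Signs turned for members with small differences. When each pool was left out in turn, COL1A2 ran from -0.20 to 0.34, COL5A2 from -0.02 to 0.32, LUM from -0.08 to 0.34, COL6A2 from -0.22 to 0.17, COL6A3 from -0.10 to 0.13, DCN from -0.10 to 0.08, FBN1 from -0.27 to 0.16, LAMB2 from -0.04 to 0.19, LAMC1 from -0.11 to 0.02, LOXL1 from -0.02 to 0.46 and TIMP3 from -0.07 to 0.12. Among these fits, the positive values of COL6A2, DCN, FBN1 and LAMC1 came from leaving out barrow replicate 2. With array weights COL6A2 was at 0.03, COL6A3 at 0.08, DCN at 0.04, FBN1 at 0.03, LAMC1 at 0.00 and TIMP3 at -0.02. COL6A3 was at 0.01 with median centring, and TIMP3 at -0.09 with the mean of probe sets. The replicate block turned no sign, since it leaves the differences as they are. The causes were not tested.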
